A study of Apis mellifera with 18 samples.

Results

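The co-receptors of insect olfaction described here are Orco, IR25a and IR93a, 3 of the 17545 genes counted in honey bee (Apis mellifera) tissue. They were chosen by gene identifier. Orco is GB40730, whose best KEGG hit (the closest entry in a pathway database, given in the deposited table) is odorant receptor 2, the name under which Orco is known in the honey bee. IR25a is GB47387, with ionotropic receptor 25a as its hit, and IR93a is GB50521, with ionotropic receptor 93a as its hit. The gene model GB42136 has the same hit as GB50521, so the name IR93a is uncertain between these models, and reads of near-identical stretches could have been split between them. Values for GB42136 are given beside those of GB50521.

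RNA was sequenced in 18 libraries, in 6 groups of 3. For each of the tissues called tentacles and mouthparts in the labels, the groups were bees that collected pear pollen (pear), bees that collected Olea europaea (olive) pollen (olea) and control bees without pollen. The series title names Italian honey bees and their collection preference as the subject. The labels say neither the age of the bees nor whether a library was 1 animal, a pool or a repeated preparation, so the p-values reflect how these libraries vary, which may be technical.

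Insects detect most volatile odorants with odorant receptors, membrane proteins of olfactory sensory neurons that work only as channels assembled with Orco. Orco itself binds few odorants, and one Orco gene serves the whole odorant receptor family. Ionotropic receptors are relatives of ionotropic glutamate receptors and form a separate chemosensory system. IR25a is their most widely used co-receptor, in smell, taste, temperature and humidity sensing. IR93a acts together with IR25a, and in Drosophila melanogaster it is needed for sensing cool temperature and humidity.

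The 3 mouthparts libraries taken here as olea carry conflicting labels. Their titles and source names say pear pollen and their genotype entries say olea pollen, and every mouthparts value of olea rests on reading them as olea. Library totals were 26.4 to 41.4 M (1e6 counts) in the tentacles and 25.9 to 40.3 M in the mouthparts. Between the replicates of a group, the chi-square per degree of freedom of the counts was 3.40 to 16.2 for pairs without the libraries named next. It was 31.2 to 52.9 for pairs with the second mouthparts replicate of pear or olea or the second tentacles control, and these libraries stand apart. The 143 other odorant receptors summed to 2036 to 2319 CPM (counts per 1e6 counts of a library) in the tentacles and to 57.6 to 84.9 CPM in the mouthparts. The homeotic gene of mouthparts identity, proboscipedia (GB51302), had 60.8 to 103 CPM there and 0 to 0.328 CPM in the tentacles, so proboscipedia and the summed odorant receptors went with the tissue names. The odorant binding proteins, also taken as tentacles markers, were mixed. They summed to 53272 CPM on average in tentacles and 8198 CPM in mouthparts, but of 18 tested 7 were higher and 10 lower in tentacles (43.3% and 39.2% of all genes). The major royal jelly protein family summed to 1144 to 1163 CPM in pear tentacles, 1184 to 1203 CPM in olea tentacles and 20307 to 30384 CPM in control tentacles. In the mouthparts it summed to 9290 to 11551 CPM in pear, 10581 to 13204 CPM in olea and 82123 to 87873 CPM in control. Its part in the results below was not tested.

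Of the odorant receptors and co-receptors, Orco was the most abundant transcript of the tentacles by a wide margin. Its level was 344 FPKM (fragments per kilobase and per 1e6 fragments, as deposited) on average over the 9 tentacles libraries, rank 171 of 17545 genes. Among the 3 co-receptors and the 143 other odorant receptors it ranked first, ahead of the odorant receptor GB52371 at 81.4 FPKM. IR25a had 11.2 FPKM in the tentacles and ranked 41st of these 146 receptors. IR93a had 3.74 FPKM and ranked 113th. On this scale, which corrects for gene length, Orco stood far above both ionotropic co-receptors in the tentacles. In the mouthparts the order of the 9-library means was another one, with IR25a at 2.74 FPKM, Orco at 0.812 FPKM and IR93a at 0.404 FPKM. Orco lay above IR93a in control mouthparts only (2.32 against 0.630 FPKM). It lay below IR93a in pear (0 against 0.327 FPKM) and in olea (0.117 against 0.256 FPKM).

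**Figure D1:**
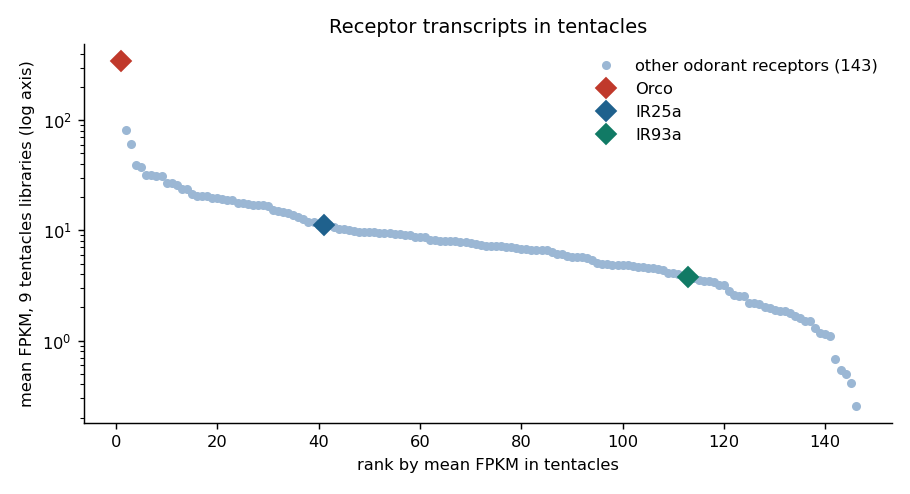
Mean deposited FPKM over the 9 tentacles libraries (log axis) of Orco, IR25a, IR93a and the 143 other odorant receptors, against their rank. Orco at 344 FPKM lies above GB52371 at 81.4 FPKM, while IR25a at 11.2 FPKM and IR93a at 3.74 FPKM lie among the odorant receptors.

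All 3 co-receptors were higher in tentacles than in mouthparts, and they differed widely in how much of them the mouthparts held. Orco had 415 to 631 CPM with a median of 601 CPM in the 9 tentacles libraries, and 0 to 4.64 CPM with a median of 0.0748 CPM in the 9 mouthparts libraries. The tissues did not come near each other, and the pooled Orco level was 454-fold higher in tentacles (edgeR's quasi-likelihood F test with Benjamini-Hochberg adjustment, adjusted p = 2.21e-17). A fold within each group follows from the pooled counts. Tentacles exceeded mouthparts at least 24325-fold in pear, where the mouthparts had 0 counts and the bound uses a floor of 3 counts over the group, 2809-fold in olea and 123-fold in control. Without the third olea mouthparts library, which held 13 of the group's 17 counts, the olea fold was 8052. No fitted fold is given for Orco where a group had 0 counts.

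IR25a was detected in every library of both tissues. It had 30.1 to 40.0 CPM with a median of 32.7 CPM in the tentacles, and 6.79 to 9.13 CPM with a median of 8.50 CPM in the mouthparts. The ranges were well apart, with a log2 fold change of 1.74 ± 0.05 (SE, tentacles over mouthparts, adjusted p = 1.66e-16). IR93a had 8.14 to 12.7 CPM with a median of 10.5 CPM in the tentacles, and 0.619 to 2.29 CPM with a median of 0.860 CPM in the mouthparts. Its log2 fold change was 3.01 ± 0.12 (adjusted p = 1.34e-14), and its ranges did not overlap either. Of all genes tested, 82.5% passed between the tissues (adjusted p under 0.05), 43.3% higher and 39.2% lower in tentacles, so a pass alone sets none of the co-receptors apart. The split was 5789 genes higher and 5238 lower in tentacles, and 7682 and 3576 when libraries were scaled by their totals in place of TMM (edgeR's trimmed mean scaling), which moved the median of all genes by over 0.1. The median log2 fold change of all genes was 0.05 with TMM and 0.33 without, and IR25a stood at 1.74 and 2.03, IR93a at 3.01 and 3.29. In bulk tissue, fewer cells of a type and less RNA per cell cannot be told apart.

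Expressed as the mouthparts level in percent of the tentacles level, the co-receptors kept a clear order in all 3 groups. For IR25a the share was 26.9% in pear, 26.2% in olea and 20.8% in control. For IR93a it was 10.03% in pear, 6.85% in olea and 15.6% in control. For Orco it was 0% in pear, 0.0356% in olea (0.0124% without the third mouthparts library) and 0.814% in control. Each mouthparts group thus held a larger share of IR25a than of IR93a, and of IR93a than of Orco. The 0.814% by which Orco was present in control mouthparts would be 0.314 CPM of IR25a and 0.0930 CPM of IR93a, against the 8.03 and 1.78 CPM pooled over those libraries. This is arithmetic only, and the part of tentacles RNA in these levels was not tested.

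**Figure D2:**
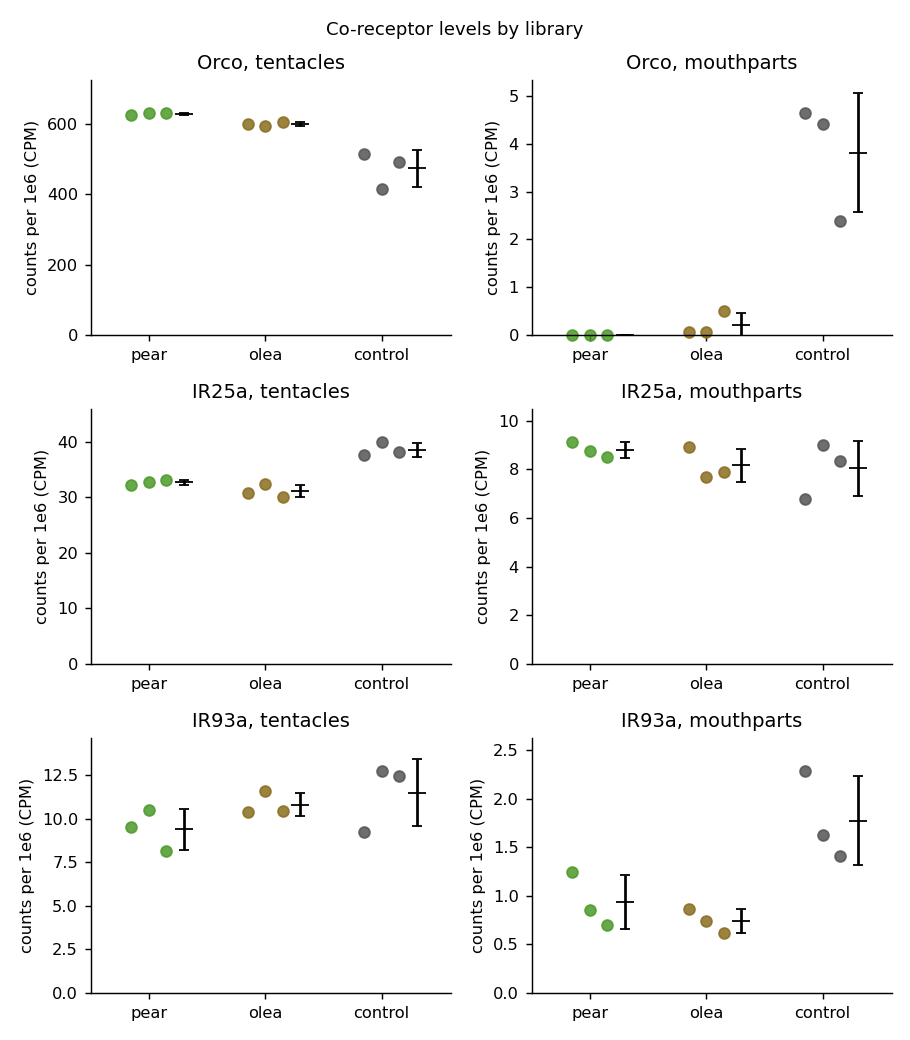
CPM of Orco, IR25a and IR93a in each library, with tentacles in the left column and mouthparts in the right, for pear, olea and control. Points are libraries and black marks are mean ± SD (n = 3). The SD bar of Orco in olea mouthparts is cut at 0. Orco in mouthparts runs from 0 to 4.64 CPM on an axis that is expanded against that of the tentacles, where it runs from 415 to 631 CPM.

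Both pollen groups had more Orco than the control in the tentacles. Orco had 627, 631 and 631 CPM in the pear libraries, 601, 596 and 607 CPM in the olea libraries and 514, 415 and 492 CPM in the control libraries. Every library of either pollen group lay above every control, and the groups averaged 629 ± 2.43, 601 ± 5.59 and 474 ± 51.8 CPM (SD, n = 3 each). The control libraries spread by far the most, with a coefficient of variation of 10.9% against 0.387% in pear and 0.930% in olea. Log2 fold changes were 0.44 ± 0.06 for pear over control (adjusted p = 0.000207) and 0.35 ± 0.06 for olea over control (adjusted p = 0.00103). Without the second control, which was lowest, they were 0.35 (adjusted p = 3.83e-06) and 0.27 (adjusted p = 4.82e-05). The olea difference did not pass in a fit of all 18 libraries (log2 fold change 0.37, adjusted p = 0.0724). Between the pollens the log2 fold change of olea over pear was -0.08 ± 0.06 (95% interval -0.21 to 0.04, adjusted p = 0.627) and did not pass. With only these 6 libraries in the fit it passed at -0.08 (adjusted p = 0.0193), and the olea and pear libraries did not overlap. Both pollen groups were compared with the same 3 control libraries.

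IR25a was lower in the tentacles of both pollen groups than in control tentacles. It had 32.2, 32.7 and 33.1 CPM in pear, 30.9, 32.4 and 30.1 CPM in olea and 37.5, 40.0 and 38.2 CPM in control. No pollen library reached the lowest control, while pear and olea overlapped. The log2 fold change was -0.30 ± 0.07 for olea over control (adjusted p = 0.00491). For pear over control it was -0.22 ± 0.06 (adjusted p = 0.0269). That call was lost without any 1 of the pear libraries (adjusted p = 0.0593 to 0.0793), with only the 6 libraries compared (0.0559) and in a fit of all 18 (0.0937). Olea over pear gave -0.09 ± 0.07 (95% interval -0.23 to 0.06, adjusted p = 0.662).

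IR93a did not pass in the tentacles. It had 9.51, 10.5 and 8.14 CPM in pear, 10.4, 11.6 and 10.5 CPM in olea and 9.26, 12.7 and 12.5 CPM in control, and all 3 groups overlapped. Log2 fold changes were -0.27 ± 0.14 for pear over control (95% interval -0.58 to 0.04, adjusted p = 0.182), -0.08 ± 0.14 for olea over control (-0.40 to 0.23, adjusted p = 0.704) and 0.19 ± 0.15 for olea over pear (-0.13 to 0.51, adjusted p = 0.681). Without the first control the pear difference passed (-0.42, adjusted p = 0.0221), and without the second control the olea difference was 0.01. GB42136, the gene model with the same hit, had 3.40 CPM in pear, 3.54 CPM in olea and 3.66 CPM in control tentacles, and passed in no pollen comparison. Of all genes tested in the tentacles, 29.5% passed for pear over control, 27.9% for olea over control and 2.6% for olea over pear, against 2, 2 and 0 of the 3 co-receptors.

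**Figure D3:**
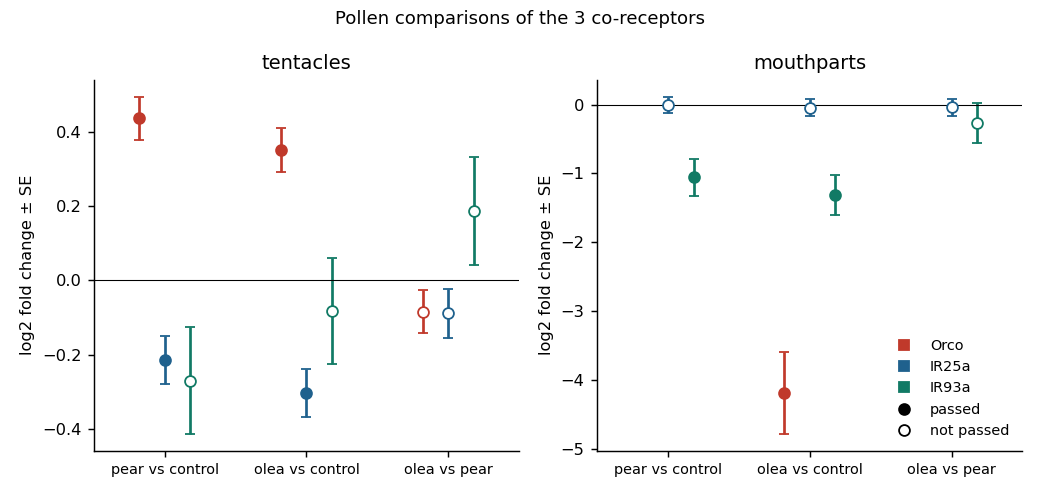
Log2 fold changes with SE of the 3 co-receptors in the pollen comparisons of each tissue, filled where the gene passed. In the tentacles Orco lies above 0 and IR25a below 0 against control, and in the mouthparts IR93a and Orco lie below 0. Orco has no point for pear over control or olea over pear in the mouthparts, as pear had 0 counts.

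In the mouthparts Orco was at or near 0 in the pollen groups and low in the control. It had 0, 0 and 0 counts in the pear libraries, 2, 2 and 13 counts in the olea libraries and 136, 128 and 66 counts in the control libraries. For pear the floor of 3 counts over the group is 0.0259 CPM, and the exact Poisson 95% upper limit is 0.0318 CPM. The groups did not overlap, and they averaged 0 CPM in pear, 0.217 ± 0.247 CPM in olea and 3.81 ± 1.25 CPM in control (SD, n = 3 each). Of the 17 olea counts, 13 came from the third library. The pooled olea level was 0.214 CPM, with an exact Poisson 95% interval of 0.125 to 0.343 CPM that covers counting error only.

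With the floor of 3 counts for pear, Orco was at least 148-fold lower in pear than in control mouthparts (adjusted p = 0.000273). It was 17.9-fold lower in olea than in control by pooled level, with a fitted log2 fold change of -4.19 ± 0.60 (adjusted p = 0.00220). Without the third olea library the pooled difference was 51.4-fold and the fitted one -5.66 (adjusted p = 0.000180). Both calls held without the 3 second replicates (adjusted p = 0.00509 and 0.0236). With the same floor olea exceeded pear at least 8.27-fold (adjusted p = 0.0313), a bound that dropped to 2.88-fold without the third olea library, from 4 counts (adjusted p = 0.0422). That difference did not pass without any 1 of the pear libraries (0.0516 to 0.0604), without the 3 second replicates (0.0719) or with limma on log2(FPKM + 1) (0.506). Orco entered all of these mouthparts tests through the control libraries, so a fall against control was favoured in advance. With only the olea and pear libraries in the fit it was left out by the filter on low counts, so that fit could not test it. The tissues differed in direction, with more Orco in the tentacles and less in the mouthparts of both pollen groups than of control. The test of that difference, the interaction of tissue with pollen, gave an adjusted p of 3.85e-07 for pear and a log2 value of 4.58 ± 0.44 for olea (adjusted p = 1.62e-05), or 6.06 without the third olea mouthparts library (adjusted p = 2.50e-06).

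GB55593, the most abundant odorant binding protein of the tentacles and one of the genes most like Orco in pattern, was lower in the mouthparts of both pollen groups than in control mouthparts. Its family of small soluble proteins, which carry odorants in the sensory lymph, was mixed. The members GB53369 and GB53368, also among the genes most like Orco, were lower on average in both pollen groups than in control mouthparts. GB53369 had 2.98 CPM in pear, 5.04 CPM in olea and 84.5 CPM in control mouthparts. The family sum was not lower, with 10296 CPM on average in pear, 7517 CPM in olea and 6780 CPM in control mouthparts for the 20 members. Of 18 tested, 8 rose and 6 fell in pear and 4 rose and 6 fell in olea (of all genes 16.5% rose and 17.3% fell in pear, 12% and 14.8% in olea). GB55593 had 21.6, 16.2 and 19.0 CPM in pear mouthparts, 9.79, 10.5 and 28.2 CPM in olea mouthparts and 187, 177 and 135 CPM in control mouthparts. Its log2 fold changes were -3.27 ± 0.41 for pear (adjusted p = 0.00149) and -3.43 ± 0.42 for olea (adjusted p = 0.00195). As for Orco, the third library was the highest of the olea group and the lowest of the control. By pooled level GB55593 was 10.4-fold lower in olea than in control, and 16.4-fold lower without the third olea library. The number of Orco counts per 1000 GB55593 counts was 0 in pear, 13.4 in olea and 23.0 in control mouthparts, and 26.8, 24.8 and 21.4 in the tentacles of these groups. By library the ratio was 17.7 to 25.02 in control mouthparts and 17.6 to 25.3 in control tentacles, and these ranges overlapped. In olea it was 7.63, 7.09 and 17.9 in mouthparts and 24.5 to 25.3 in tentacles, and in pear 0 in every mouthparts library and 26.6 to 27.2 in tentacles, so in both pollen groups the tissues were apart. Without the third library the pooled ratio of olea mouthparts was 7.35. GB55593 is among the genes most like Orco over these same libraries, so a similar ratio across them is partly given by the choice of gene. The part of tentacles RNA in the mouthparts libraries was not tested.

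The summed odorant receptors did not follow Orco to the same extent. The 143 other odorant receptors summed to 63.2 to 74.0 CPM in pear mouthparts, 57.6 to 62.6 CPM in olea mouthparts and 74.6 to 84.9 CPM in control mouthparts. Pear mouthparts thus held 0 Orco counts beside 8053 counts of other odorant receptors, olea mouthparts 17 beside 4760 and control mouthparts 330 beside 6953. Of 137 odorant receptors with at least 1 CPM in the tentacles, 65 in pear, 73 in olea and 49 in control mouthparts were under 1% of their tentacles level. These numbers depend on detection, as 20, 30 and 16 of the 143 had no count in these groups. Olea had the lowest library totals of them, at 25.9 to 26.8 M. The same share over all genes was not counted. GB40197, named odorant receptor 49b-like, was the most abundant of the family in the mouthparts, with 7.09 CPM in pear, 6.30 CPM in olea and 9.37 CPM in control.

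**Figure D4:**
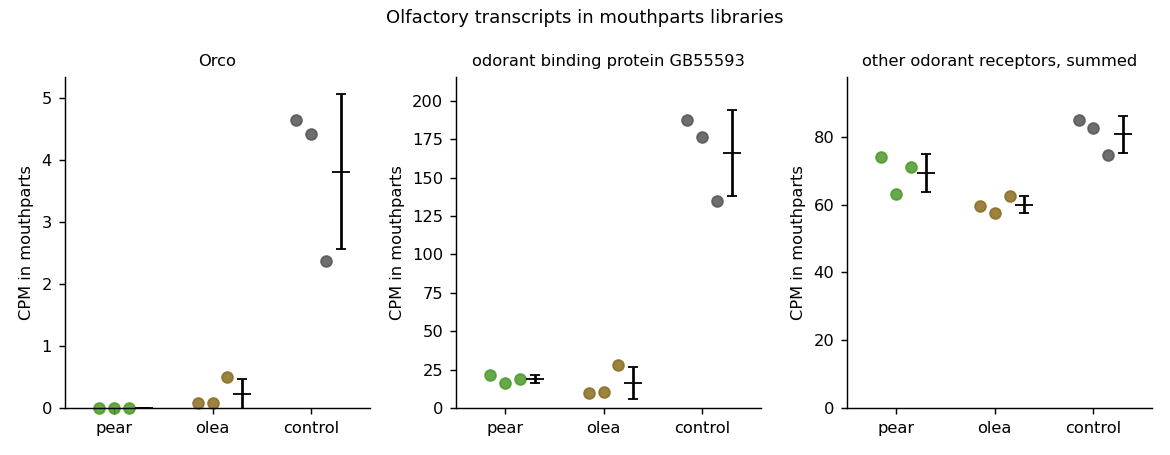
CPM in each mouthparts library of Orco, the odorant binding protein GB55593 and the 143 other odorant receptors summed, for pear, olea and control. Points are libraries and black marks are mean ± SD (n = 3). The SD bar of Orco in olea is cut at 0. Orco and GB55593 are far higher in the control than in either pollen group, while the summed receptors run from 57.6 to 84.9 CPM over all 9 libraries.

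IR25a did not pass in the mouthparts. It had 9.13, 8.77 and 8.50 CPM in pear, 8.93, 7.68 and 7.89 CPM in olea and 6.79, 9.01 and 8.32 CPM in control, and the groups overlapped. Log2 fold changes were close to 0, at -0.0044 ± 0.12 for pear over control (95% interval -0.27 to 0.26, adjusted p = 0.983), -0.04 ± 0.12 for olea over control (-0.31 to 0.23, adjusted p = 0.843) and -0.04 ± 0.12 for olea over pear (-0.30 to 0.23, adjusted p = 0.854). Their sign depended on the scaling, with 0.13 for pear and 0.02 for olea over control without TMM. The median of all genes for pear over control was 0.01 with TMM and 0.15 without.

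IR93a was lower in the mouthparts of both pollen groups than in control mouthparts. It had 1.24, 0.854 and 0.704 CPM in pear, 0.860, 0.745 and 0.619 CPM in olea and 2.29, 1.62 and 1.41 CPM in control, from 16 to 67 counts a library. Every control library lay above every pollen library, and pear and olea overlapped. Log2 fold changes were -1.05 ± 0.27 for pear over control (adjusted p = 0.01001) and -1.31 ± 0.29 for olea over control (adjusted p = 0.00547). The pear call was lost without the first control (-0.85, adjusted p = 0.0534) and without the 3 second replicates (-1.06, adjusted p = 0.0623). Olea over pear gave -0.26 ± 0.29 (95% interval -0.90 to 0.37, adjusted p = 0.540). GB42136 had 0.284 CPM in pear, 0.477 CPM in olea and 0.468 CPM in control mouthparts and passed in none of these comparisons.

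Of all genes tested in the mouthparts, 33.8% passed for pear over control, 26.8% for olea over control and 30.9% for olea over pear, against 2, 2 and 1 of the 3 co-receptors. The splits of higher and lower genes were 2028 and 2129, 1472 and 1821, and 1835 and 1958 with TMM. Without TMM they were 3572 and 1213, 1982 and 1354, and 1139 and 2499.

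The interaction of tissue with pollen asks whether the log2 fold change of a pollen group over control, with its sign, differed between the tissues. A positive value means that it was higher in tentacles than in mouthparts, also where the mouthparts fell more. IR93a passed for olea, with a log2 value of 1.26 ± 0.31 (adjusted p = 0.00966), and not for pear, with 0.80 ± 0.29 (adjusted p = 0.0790). Without the first pear mouthparts library the pear value passed at 1.04 (adjusted p = 0.0292). With limma on log2(FPKM + 1) the olea value was 0.30 (adjusted p = 0.202). IR25a passed for neither, at -0.20 ± 0.13 for pear (adjusted p = 0.368) and -0.23 ± 0.13 for olea (adjusted p = 0.254). Without TMM the pear value of IR25a was -0.37 and passed (adjusted p = 0.0411). Of all genes, 12.8% passed the pear interaction and 15.4% the olea interaction, against 1 and 2 of the 3 co-receptors. The splits of higher and lower were 977 and 729 for pear and 1397 and 659 for olea with TMM, and 564 and 2384 and 895 and 1257 without.

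Ratios of raw counts within a library need no scaling between libraries. For 6 such ratios, differences in log2 ratio (0.5 added to each count) were tested with exact permutation tests and adjusted by Benjamini-Hochberg over the 6. The tissues were compared with a 2-sided test of the difference in means, and the pollen groups with a test for any difference among the 3 groups, which does not test pollen against control. Orco counts per 100 counts of the other odorant receptors were 27.2 to 27.4 in pear, 26.28 to 26.33 in olea and 20.4 to 23.1 in control tentacles. The groups did not overlap, and the 3 groups differed with an exact p of 0.00357, the smallest that 3 groups of 3 allow (adjusted p = 0.00714). As a description, the pollen groups were 0.30 higher than control in mean log2 ratio. In the mouthparts the ratio was 0 in pear, 0.125 to 0.803 in olea and 3.19 to 5.47 in control. The tissues differed by 6.45 (9 against 9 libraries, exact p = 4.11e-05, the smallest possible, adjusted p = 0.000247). Pear mouthparts had 0 Orco counts, so the size of this difference depends on the 0.5 added. Mean log2 ratios in tentacles and mouthparts were -2.20 and -4.46 in control and -1.93 and -8.50 in olea.

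The ionotropic co-receptors were set against Orco and against each other in the same way. IR25a counts per 100 Orco counts were 5.13 to 5.26 in pear, 4.97 to 5.43 in olea and 7.31 to 9.62 in control tentacles. The 3 groups differed (exact p = 0.0286, adjusted p = 0.0343). No control library overlapped with a pollen group, and the mean log2 ratio of the pollen groups minus that of control was -0.66. IR93a counts per 100 IR25a counts were 24.6 to 32.1 in pear, 33.7 to 35.8 in olea and 24.7 to 32.6 in control tentacles. The test among the 3 groups did not pass (exact p = 0.182, adjusted p = 0.182), and the pollen groups minus control gave 0.09 in mean log2 ratio. In the mouthparts they were 8.28 to 13.6 in pear, 7.84 to 9.71 in olea and 16.9 to 33.7 in control. The 3 groups differed (exact p = 0.0179, adjusted p = 0.0268), with -1.16 for the pollen groups minus control in mean log2 ratio. The call among the 3 groups was lost without the first control (-0.84, adjusted p = 0.0643) and without the third olea library (-1.11, adjusted p = 0.0514). Without the 3 second replicates the difference was -1.30, which could not be tested, as 3 groups of 2 allow no exact p under 0.0667. Over all groups the IR93a to IR25a ratio was 1.27 higher in tentacles than in mouthparts on the log2 scale (exact p = 0.000370, adjusted p = 0.00111). That test did not separate the pollen groups. In control the tissues overlapped, with mean log2 ratios of -1.76 in tentacles and -2.19 in mouthparts. These means were -1.81 and -3.26 in pear and -1.52 and -3.44 in olea.

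**Figure D5:**
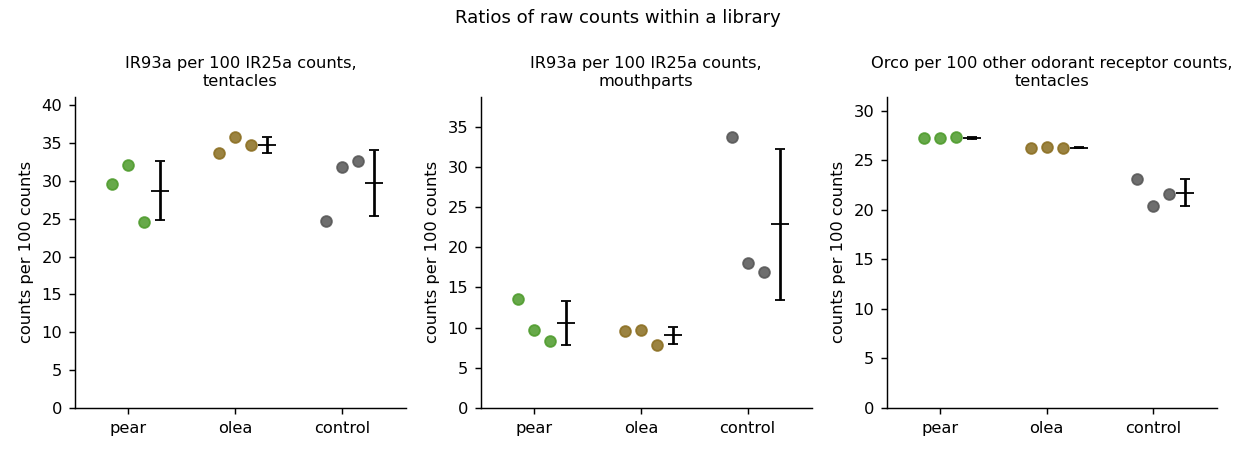
IR93a counts per 100 IR25a counts in tentacles and in mouthparts, and Orco counts per 100 counts of the 143 other odorant receptors in tentacles, by library for pear, olea and control. Points are libraries and black marks are mean ± SD (n = 3). In mouthparts the control libraries lie at 16.9 to 33.7 against 7.84 to 13.6 in the pollen groups, and in tentacles Orco per odorant receptor count is lowest in the control.

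The proteins that Orco works with were counted in the same comparisons. Of the 143 other odorant receptors, 142 were tested in the tentacles, and 24 rose and 4 fell in pear against control (14.9% of all genes rose and 14.6% fell). The median log2 fold change of these receptors was 0.09, and that of all genes -0.01. In olea 19 rose and 4 fell (14.4% and 13.5% of all genes), with a median of 0.06 beside 0.00 for all genes. Without the second control, 21 rose and 11 fell in pear and 15 rose and 8 fell in olea. Between olea and pear only GB45078 passed, and it fell by 0.40 ± 0.09 on the log2 scale (adjusted p = 0.0486; 0.695% of all genes fell and 1.91% rose). GB45078, which also had the smallest p for pear over control, rose by 0.94 ± 0.10 in pear (adjusted p = 2.33e-05) and by 0.54 ± 0.10 in olea (adjusted p = 0.00155). The receptor newGene_1162, with the smallest p for olea over control, had 6.9995 CPM in pear, 7.34 CPM in olea and 4.65 CPM in control tentacles and 0 CPM in the mouthparts, and it rose by 0.61 ± 0.11 and 0.66 ± 0.11. The most abundant of them in the tentacles after Orco were GB52371, GB48703 and GB52398. Of these GB48703, at 166 CPM in pear, 155 CPM in olea and 121 CPM in control, rose by 0.48 ± 0.07 and 0.36 ± 0.07, close to the size for Orco. GB52371, at 125, 113 and 123 CPM, and GB52398, at 53.6, 54.2 and 50.8 CPM in pear, olea and control, did not pass.

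In the mouthparts 53 odorant receptors were tested, and 3 rose and 13 fell in pear against control (16.5% and 17.3% of all genes). In olea 0 rose and 9 fell (12% and 14.8%). In the interaction of tissue with pollen, 28 of 142 were higher and 3 lower for pear (7.31% and 5.46% of all genes), and 30 were higher and 2 lower for olea (10.5% and 4.93%). Between olea and pear 4 rose and 5 fell (14.9% and 15.9% of all genes), and without the 3 second replicates 3 rose and 2 fell. GB50053, named odorant receptor 82a, had 0.0248 CPM in pear, 0.555 CPM in olea and 1.01 CPM in control mouthparts, with 20.7 to 23.3 CPM on average in the tentacles groups. GB52371 had 0.439 CPM in pear, 0.277 CPM in olea and 1.35 CPM in control mouthparts and fell in both (log2 fold changes -1.75 ± 0.34 and -2.34 ± 0.38, adjusted p = 0.00187 and 0.000900). GB48703 fell in both as well and averaged 0.180 CPM in pear, 0.0645 CPM in olea and 0.975 CPM in control. Receptors this low in the pollen groups could pass the filter on low counts through the control libraries alone. For such receptors a fall against control was favoured in advance, and how many they were was not counted. Between tissues 141 of 142 odorant receptors were higher in tentacles and 0 lower (43.3% and 39.2% of all genes). In the fit of the mouthparts alone only 53 passed the filter on low counts. Many of the 142 thus entered the tissue and interaction tests only through their level in tentacles. For these the direction between tissues was fixed in advance.

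The proteins related to IR25a and IR93a were fewer. Besides these and GB42136, the table names 1 more ionotropic receptor, GB42965, whose hit is IR68a, a receptor that in Drosophila melanogaster works with IR25a and IR93a in moist-air sensing. It had 4.51 CPM in pear, 4.89 CPM in olea and 5.74 CPM in control tentacles, and 2.19, 1.74 and 1.82 CPM in the mouthparts of these groups. Of GB42136 and GB42965, 0 of 2 passed in any pollen comparison, and both were higher in tentacles (2.85 ± 0.16 and 1.11 ± 0.12 on the log2 scale). Their common median for pear over control in tentacles was -0.20. A further list held 24 genes, 19 of them named as glutamate receptors, channels of neurons and muscle from which the ionotropic receptors derive, and 5 taken in by a ligand-gated channel domain only, which could include ionotropic receptors. In the tentacles 19 of the 24 were tested, and 5 rose and 4 fell in pear (14.9% and 14.6% of all genes) and 3 rose and 3 fell in olea (14.4% and 13.5%) against control. In the mouthparts 19 were tested, and 5 rose and 5 fell in pear (16.5% and 17.3% of all genes) and 1 rose and 3 fell in olea (12% and 14.8%). Between tissues 12 were higher and 7 lower of 20 tested (43.3% and 39.2% of all genes), with a median of 0.45 beside 0.05 for all genes. GB50006, the most abundant in the tentacles, was higher there (1.97 ± 0.05) and GB49275, named kainate 2, the most abundant in the mouthparts, was higher in mouthparts (-2.97 ± 0.09).

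Other components of sensory hairs were counted beside the co-receptors. Of 26 genes of ciliary transport tested, which carry receptors into the sensory cilium, 24 were higher in tentacles and 0 lower (43.3% and 39.2% of all genes), with a median log2 fold change of 2.54 beside 0.05 for all genes. BBS1 (GB50742), part of the complex that sorts ciliary membrane proteins, and the kinesin-2 motor subunit KIF3B (GB49896) were the most abundant of them in tentacles and in mouthparts. They were higher in tentacles by 3.74 ± 0.06 and 1.41 ± 0.04. Against control in the tentacles, 2 rose and 2 fell in pear (14.9% and 14.6% of all genes) and 3 rose and 5 fell in olea (14.4% and 13.5%). In the mouthparts 4 rose and 1 fell in pear (16.5% and 17.3% of all genes) and 0 rose and 8 fell in olea (12% and 14.8%).

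SNMP1 (GB48343), a membrane protein of olfactory neurons that helps detect pheromones in Drosophila melanogaster, was higher in tentacles (1.89 ± 0.04). It had 1313 CPM in pear, 1145 CPM in olea and 1186 CPM in control tentacles, rose in pear over control by 0.17 ± 0.04 (adjusted p = 0.0130) and was lower in olea than in pear (-0.22 ± 0.04, adjusted p = 0.0244). SNMP2-like GB50454 was lower in tentacles (-2.15 ± 0.04) and rose in the mouthparts of pear (0.88 ± 0.06) and olea (0.89 ± 0.06). Of the 11 genes of the CD36 family to which both belong, 6 were higher and 5 lower in tentacles (43.3% and 39.2% of all genes; median 0.14). In the tentacles 6 rose and 1 fell in pear (14.9% and 14.6% of all genes) and 5 rose and 2 fell in olea (14.4% and 13.5%). In the mouthparts 4 rose and 3 fell in pear (16.5% and 17.3% of all genes) and 2 rose and 1 fell in olea (12% and 14.8%). The other 9 were scavenger receptor class B genes and croquemort-type genes, of which GB53014 rose in tentacles of pear (0.90 ± 0.06) and olea (0.81 ± 0.06), GB50865 by 1.05 ± 0.08 and 0.98 ± 0.08, GB45986 by 0.68 ± 0.04 and 0.70 ± 0.04, and GB52097 by 0.68 ± 0.05 and 0.83 ± 0.05. GB50866 rose in pear (0.15 ± 0.05), GB40306 rose in olea (0.27 ± 0.08), GB44045 fell in olea (-0.21 ± 0.06) and GB49363 fell in both (-0.23 ± 0.06 in pear and -0.18 ± 0.06 in olea). newGene_1025 passed in neither.

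Of 18 odorant binding proteins tested, 7 were higher and 10 lower in tentacles (43.3% and 39.2% of all genes; median -0.22). In the tentacles 5 rose and 2 fell in pear (14.9% and 14.6% of all genes) and 6 rose and 2 fell in olea (14.4% and 13.5%). GB55593 was the most abundant in tentacles and GB46225 in mouthparts. Of 6 chemosensory proteins, soluble carriers with the OS-D domain, GB43823 and GB52326 were higher in tentacles (0.88 ± 0.06 and 6.76 ± 0.07), GB52324 and GB55547 were lower (-1.04 ± 0.05 and -1.24 ± 0.07), and GB54969 and GB54970 did not pass. GB52326 fell in tentacles of pear (-0.32 ± 0.06) and olea (-0.40 ± 0.06), as IR25a did, and GB55547 fell by 0.74 ± 0.15 and 0.58 ± 0.15. GB54970 rose by 0.35 ± 0.07 and 0.38 ± 0.07.

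Of 12 gustatory receptors tested, 7 were higher and 4 lower in tentacles (43.3% and 39.2% of all genes; median 1.27). The sugar receptor 43a (GB40382) did not pass, with 44.0 CPM in pear, 44.6 CPM in olea and 40.4 CPM in control tentacles and 37.2, 36.2 and 31.0 CPM in the mouthparts. The sugar receptors named 64f, GB41360 (1.32 ± 0.09) and GB44499 (1.22 ± 0.11), were higher in tentacles, as were newGene_2680, GB42404, GB50309, GB51456 and GB53326. GB53327, named 32a-like (-1.28 ± 0.13), GB51914 (-1.43 ± 0.16), GB53864 (-0.51 ± 0.13) and gustatory receptor 10 (GB44013) were higher in mouthparts. Of the 12 in the tentacles, 1 rose and 2 fell in pear (14.9% and 14.6% of all genes) and 0 rose and 1 fell in olea (14.4% and 13.5%). Of 8 tested in the mouthparts, 0 rose and 1 fell in pear (16.5% and 17.3% of all genes) and likewise in olea (12% and 14.8%). GB44013 had 0.123 CPM in pear, 0 CPM in olea and 0.805 CPM in control tentacles.

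Marker genes of cell types were read beside these results. The 14 neuron markers, all detected in every group, summed to 1929 to 2046 CPM in pear, 1980 to 2028 CPM in olea and 1721 to 1828 CPM in control tentacles. They summed to 739 to 773 CPM in pear, 675 to 714 CPM in olea and 599.5 to 643 CPM in control mouthparts. In the tentacles, where Orco rose and IR25a fell, 5 of 14 rose in pear (14.9% of all genes) and 6 in olea (14.4%), with 0 fallen in either (14.6% and 13.5%). In the mouthparts, where Orco and IR93a fell, 5 rose and 2 fell in pear (16.5% and 17.3% of all genes) and 4 rose and 2 fell in olea (12% and 14.8%). Between tissues 10 were higher and 4 lower in tentacles (43.3% and 39.2% of all genes; median 2.02 beside 0.05). The 27 muscle markers summed to 3333 to 3490 CPM in pear, 4651 to 4758 CPM in olea and 4739 to 5058 CPM in control tentacles, and 18 of 25 tested fell in pear (14.6% of all genes) and 6 in olea (13.5%), with 1 risen in each. The 8 photoreceptor markers summed to 325 to 337, 310 to 319 and 275 to 282 CPM in pear, olea and control tentacles, and the 12 fat body markers to 3798 to 3865, 3049 to 3087 and 2946 to 3156 CPM.

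In the mouthparts, where Orco and IR93a fell, the fat body markers summed to less in the pollen groups than in control. They summed to 4334 to 5459 CPM in pear, 5947 to 7423 CPM in olea and 7533 to 7971 CPM in control mouthparts, and of 10 tested 0 rose and 6 fell in pear (16.5% and 17.3% of all genes) and 1 rose and 4 fell in olea (12% and 14.8%). Every control library had a higher sum than every pollen library. The muscle markers summed to 21998 to 32301 CPM in pear, 22948 to 31054 CPM in olea and 20117 to 21028 CPM in control, and of 26 tested 5 rose and 4 fell in pear (16.5% and 17.3% of all genes) and 4 rose and 3 fell in olea (12% and 14.8%). For the photoreceptor markers the sums were 171 to 199 CPM in pear, 251 to 298 CPM in olea and 191 to 203 CPM in control, and of 8 tested 1 rose and 4 fell in pear and 1 rose and 1 fell in olea, beside the same shares of all genes. The part of these markers, in either tissue, in the differences of the co-receptors was not tested.

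The genes whose pattern was most like each co-receptor are given as a description, since libraries share depth, tissue and group. Likeness over all 18 libraries was the root mean square difference of centred log2 CPM, for genes of at least 5 CPM on average. For Orco the nearest were the odorant binding protein GB53369 (0.66), the sodium-dependent multivitamin transporter GB40086 (0.93), the odorant binding proteins GB55593 (1.09) and GB53368 (1.23) and the trypsin-inhibitor-like GB50120 (1.25). In mouthparts these 5 had, as Orco did, more CPM in control than in either pollen group, such as GB53369 with 2.98 CPM in pear, 5.04 CPM in olea and 84.5 CPM in control, and GB40086 with 0.808, 1.11 and 10.7 CPM. For IR25a the nearest genes were far closer, at 0.13 for hemicentin-2 (GB44412) and 0.14 to 0.15 for GB55879, GB52179, GB48694 and GB53323. For IR93a they were newGene_3668 (0.24), GB52864 (0.28), protein 4.1 (GB41590, 0.31), the juvenile hormone binding family gene GB42794 (0.33) and GB40997 (0.34).

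Over the 9 tentacles libraries alone, likeness was Pearson's r of log2 CPM, over libraries in which the 3 groups share control and depth differences. The highest for Orco were GB53419, of the isochorismatase family (0.996), acetyl-CoA carboxylase (GB49336, 0.994), carbonic anhydrase 1 (GB46697, 0.993), the transporter MRP4 (GB50195, 0.993) and GB46768 (0.992). Like Orco these had their lowest level in control tentacles, as acetyl-CoA carboxylase with 274 CPM in pear, 265 CPM in olea and 188 CPM in control. For IR25a r was 0.985 for GB47938, 0.984 for GB54445, 0.982 for FK506-binding protein 2 (GB48497) and for GB41270, and 0.981 for dopamine N acetyltransferase (GB51044). For IR93a it was 0.931 for a kainate 2 glutamate receptor (GB49273), 0.923 for the 2-oxoisovalerate dehydrogenase subunit GB49649, 0.922 for GB50525, 0.919 for GB51930 and 0.910 for GB55268.

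Ordered by mean CPM, the levels of Orco ran from pear, olea and control tentacles to control, olea and pear mouthparts, and no neighbours in that order overlapped. The levels of IR25a ran from control tentacles to pear and olea tentacles, which overlapped, and to pear, olea and control mouthparts, which overlapped. Those of IR93a ran from control, olea and pear tentacles, which overlapped, to control mouthparts and then pear and olea mouthparts, which overlapped. The 3 co-receptors had their highest level in tentacles of different groups, pear for Orco and control for IR25a and IR93a, and in mouthparts control held the highest level of Orco and IR93a.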

How the data were processed

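Raw counts and FPKM values of 18 libraries were deposited by the authors in 1 table. Per the labels' protocols, 1.3 ug of total RNA went into a SMARTER library kit, and per the submitters' processing notes HISAT2 was used. Genome build, annotation, counting program and strand setting are stated nowhere in the sources used here. The deposited counts were analysed after 70 overlong lines had been joined, with edgeR 4.0.16 in R 4.3.3 (TMM, filterByExpr by group, robust quasi-likelihood fit), in a fit of 9 libraries within a tissue (12950 genes tested in tentacles, 12285 in mouthparts) or of all 18 between tissues and for interactions (13361). P-values were Benjamini-Hochberg adjusted over all genes tested, and a gene passed under 0.05. SEs derive from the F statistic. CPM are raw counts per 1e6 counts of a library, without TMM. Depth is 25.9 to 41.4 M counts a library, and intervals and floors cover counting error only. Limma 3.58.1 on the deposited FPKM (1 added) and DESeq2 1.42.0 were alternatives. Names came from KEGG hits with an e-value of at most 1e-10, matched to RefSeq for 6468 genes, and from Pfam domains. No sequence was used.

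On simulated counts with 200 changed genes, the fit recovered 88% of genes at a fold of 1.5 and 99% at 2 for pear over control in tentacles (12828 genes), with 6.5% false calls. In mouthparts (12110 genes) it recovered 86% and 99%, with 5.13% false calls. The changed genes were drawn from those of at least 5 CPM on average. The rates thus do not describe lower genes, such as Orco and IR93a in mouthparts. In the data far more genes passed, 3825 in tentacles and 4157 in mouthparts for pear over control.

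The members and lists were chosen with earlier results of these data known. Named genes are the 3 co-receptors, the 5 genes most like each by 2 measures, the member of each list highest in each tissue, all of lists with 12 or fewer tested members, and among odorant receptors the 3 highest in tentacles and the smallest p of each pollen comparison. The lists were odorant receptors, other ionotropic receptors, ionotropic glutamate receptors, gustatory receptors, odorant binding proteins, chemosensory proteins, the SNMP and CD36 family and ciliary transport. Cell type markers were those of neurons, muscle, royal jelly glands, photoreceptors, fat body, tentacles and mouthparts.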

Additional observations from a re-analysis of the deposited data

Results flagged for a closer look

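The difference between pollen and control differed between the tissues for Orco and IR93a, by a test of the interaction itself. For Orco the adjusted p was 3.85e-07 for pear, with 627, 631 and 631 CPM in pear tentacles against 514, 415 and 492 CPM in control tentacles, and 0 counts in pear mouthparts against 136, 128 and 66 counts in control mouthparts. For Orco in olea it was 1.62e-05, with 2, 2 and 13 counts in olea mouthparts. For IR93a in olea it was 0.00966, with 0.860, 0.745 and 0.619 CPM in olea mouthparts against 2.29, 1.62 and 1.41 CPM in control mouthparts, while the groups overlapped in the tentacles. The olea values rest on the mouthparts libraries with conflicting labels.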

How the results depend on the processing

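Of the results with a log2 fold change, 328 alternative values kept direction and side of the threshold, 9 lost and 4 gained the call and 14 changed sign. For the adjusted p of Orco 64 kept and 6 lost the call, and for the ratios 92 kept it, 6 lost it and 1 changed sign. The cause was not tested. Lost or gained calls were IR25a in pear tentacles with 6 libraries (-0.22) or 18 (-0.20), Orco in olea tentacles with 18 libraries (0.37), Orco olea over pear in tentacles with 6 libraries (-0.083, passed), IR25a in the pear interaction without TMM (-0.37, passed), IR93a in the pear interaction without the first pear mouthparts library (1.04, passed), IR93a in pear tentacles without the first control (-0.42, passed), IR25a in pear tentacles without any 1 pear library, IR93a in the olea interaction with limma (0.30) and Orco olea over pear in mouthparts with limma (adjusted p = 0.506). Without the 3 mouthparts replicates 2, Orco olea over pear (adjusted p = 0.0719) and IR93a pear over control (-1.06) lost the call. The IR93a to IR25a ratio in mouthparts was -1.30 there and is counted among the losses, but 3 groups of 2 allow no exact p under 0.0667, so it says nothing about stability.

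IR25a in mouthparts changed sign for pear over control without TMM (0.13), without the filter on low counts (0.00091), with limma (0.10) and without replicates 2 (0.082), for olea over control without TMM (0.022) and without replicates 2 (0.10), and for olea over pear without replicates 2 (0.021). Leaving out 1 library in turn gave, in tentacles, -0.25 to -0.18 for IR25a and -0.42 to -0.18 for IR93a in pear and -0.24 to 0.0078 for IR93a in olea. In mouthparts it gave -0.13 to 0.075 for IR25a and -1.30 to -0.85 for IR93a in pear, -0.15 to 0.058 for IR25a in olea and -0.11 to 0.026 for IR25a olea over pear. For Orco in mouthparts it gave -5.66 to -3.77 in olea and adjusted p of 0.0249 to 0.0604 for olea over pear. The call for IR93a in pear was lost without the first control. It gave 4.17 to 6.06 for Orco in the olea interaction, 0.58 to 1.04 for IR93a in the pear interaction, and -0.034 to 0.17 in tentacles and -1.34 to -0.84 in mouthparts for the IR93a to IR25a ratio.

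The labels do not say whether the replicate numbers pair the samples. Of 27 same-numbered pairs, 2 had a correlation of deviations over 0.1 (range -0.08 to 0.12), which does not settle it. With a replicate block Orco olea over pear in mouthparts had an adjusted p of 0.117. Under the block the ratios IR93a to IR25a in mouthparts (-1.16, adjusted p = 0.0833), IR25a to Orco in tentacles (-0.66, 0.1) and Orco to odorant receptors in tentacles (0.30, 0.0556) were not past the threshold, where permuting within 3 replicate numbers allows no p under 0.0278 before adjustment. Genes that passed olea over pear in tentacles numbered 337, and 524 with DESeq2, 1413 with 6 libraries, 168 with 18 and 143 to 186 without 1 library. Those of the pear interaction numbered 1706, and 2948 without TMM and 2569 with limma. The counts of odorant receptors without libraries that stand apart were chosen after seeing the data. Low counts limit IR93a and Orco in mouthparts.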
